A study of Mus musculus with 2 samples.

Results

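*Nmur1*, *Vipr1*, *Vipr2*, *Calcrl*, *Ramp1*, *Ramp3*, *Calca* and *Penk*, 8 neuropeptide signalling genes, were followed through H3K4me3 peak lists of lung group 2 innate lymphoid cells (ILC2s). They were chosen by symbol from the GENCODE vM21 annotation of the mouse genome GRCm38 and are 8 of 21938 protein-coding genes on the assembled chromosomes. A peak was assigned to a gene when it overlapped the gene body or lay within 1000 bp of the start of any of its transcripts, and the latter is called a start peak. Of the 8 genes, 4 encode receptors, 2 encode receptor activity-modifying proteins (RAMPs) and 2 encode peptide precursors. None encodes an adrenergic receptor.

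H3K4me3, a histone mark found at the starts of active and poised genes, was profiled with CATCH-seq, in which native chromatin of few cells is cut with micrococcal nuclease and precipitated beside carrier DNA. Each library came from about 3000 ILC2s sorted from the lungs of 8-week-old offspring. One library came from offspring of mothers given PBS (control list) and the other from offspring of mothers given ovalbumin (OVA), the asthmatic mothers (asthma list). No value therefore has a replicate, no difference could be tested, and the condition and the library cannot be told apart.

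Mothers of both groups were injected intraperitoneally with alum in PBS on day -21 and day -7, and those of the OVA group received 100 µg OVA with it. After mating with untreated males, they received PBS or 500 µg OVA intranasally between gestation day 4 and day 17. The offspring themselves had no stated treatment, and their number behind each cell pellet is not given in the sources used here. By the study's account the ChIP-seq was a single experiment with a single dam in each group, so the treatment and the litter cannot be told apart.

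Neuropeptides released by nerves, epithelial neuroendocrine cells and immune cells act on ILC2s through G protein-coupled receptors. The neuromedin U receptor NMUR1 and the vasoactive intestinal peptide (VIP) receptors are known to promote type 2 cytokine production, whereas calcitonin gene-related peptide (CGRP) can restrain or promote ILC2 responses depending on context. The calcitonin receptor-like receptor reaches the cell surface and gains its ligand preference only together with a RAMP.

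The promoter windows of the 4 receptors and of *Ramp1*, the gene with the strongest start peak, are shown because they differ strongly in CpG content. Each runs 5′ to 3′ on the strand of the gene, from 250 bases before to 50 bases after the RefSeq start on GRCm38.p6, with CpG dinucleotides in capitals. The windows are chr1:86389312-86389611 (minus strand) for *Nmur1*, chr9:121642466-121642765 (plus) for *Vipr1*, chr12:116077476-116077775 (plus) for *Vipr2*, chr2:84425217-84425516 (minus) for *Calcrl* and chr1:91179572-91179871 (plus) for *Ramp1*.
Nmur1: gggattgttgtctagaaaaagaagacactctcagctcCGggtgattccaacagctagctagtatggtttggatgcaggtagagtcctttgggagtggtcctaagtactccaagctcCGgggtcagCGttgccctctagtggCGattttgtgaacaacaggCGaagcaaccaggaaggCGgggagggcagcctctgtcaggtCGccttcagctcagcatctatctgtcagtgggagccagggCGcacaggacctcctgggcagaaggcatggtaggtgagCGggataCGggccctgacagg
Vipr1: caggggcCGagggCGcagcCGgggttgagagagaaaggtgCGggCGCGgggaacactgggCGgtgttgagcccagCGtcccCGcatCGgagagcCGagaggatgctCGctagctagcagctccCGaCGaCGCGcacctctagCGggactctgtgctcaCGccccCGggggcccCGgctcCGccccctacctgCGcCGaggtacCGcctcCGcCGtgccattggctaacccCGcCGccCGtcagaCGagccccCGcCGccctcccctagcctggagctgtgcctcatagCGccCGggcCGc
Vipr2: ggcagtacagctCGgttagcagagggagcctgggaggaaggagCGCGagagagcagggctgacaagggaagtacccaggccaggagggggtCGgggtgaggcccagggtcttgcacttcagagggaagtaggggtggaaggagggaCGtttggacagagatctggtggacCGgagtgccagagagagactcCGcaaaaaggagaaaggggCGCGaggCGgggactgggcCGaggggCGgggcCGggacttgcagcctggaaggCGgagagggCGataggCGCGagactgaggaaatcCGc
Calcrl: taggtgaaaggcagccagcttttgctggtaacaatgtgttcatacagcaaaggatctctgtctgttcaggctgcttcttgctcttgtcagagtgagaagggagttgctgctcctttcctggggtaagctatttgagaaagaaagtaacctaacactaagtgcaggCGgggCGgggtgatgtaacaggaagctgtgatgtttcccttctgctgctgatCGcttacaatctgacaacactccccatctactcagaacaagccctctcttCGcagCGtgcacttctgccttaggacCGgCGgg
Ramp1: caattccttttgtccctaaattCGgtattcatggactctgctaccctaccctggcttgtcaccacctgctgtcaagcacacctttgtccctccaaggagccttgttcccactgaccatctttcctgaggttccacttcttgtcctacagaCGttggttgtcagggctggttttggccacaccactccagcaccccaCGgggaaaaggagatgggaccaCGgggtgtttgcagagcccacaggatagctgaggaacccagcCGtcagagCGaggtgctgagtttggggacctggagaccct
The window of *Vipr1* held 35 CpGs and that of *Vipr2* held 18. The windows of *Nmur1*, *Calcrl* and *Ramp1* held 10, 7 and 6. Across 32851 RefSeq mouse promoters the median was 7 (quartiles 3 to 20), so *Vipr1* lay above the upper quartile and the other 4 lay within the quartiles. RefSeq entries matched 7 of the 8 symbols, all but *Penk*. In the control list peaks covered 67 of the 300 bases shown for *Nmur1*, 252 for *Vipr1*, 300 for *Vipr2*, 58 for *Calcrl* and 167 for *Ramp1*. In the asthma list they covered 0, 0, 240, 33 and 57 bases. These 5 windows thus had less peak cover in the asthma list. Narrower peaks were general there. Of protein-coding genes with a start peak in both lists, 92.0% had a narrower strongest start peak in the asthma list. Of the windows not shown, that of *Ramp3* had 14 covered bases in the control list and 0 in the asthma list, while those of *Calca* and of the downstream start of *Nmur1* had 0 in both.

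A start peak was found at 7 of the 8 genes in the control list and at 3 in the asthma list. The start peaks of *Vipr2*, *Calcrl* and *Ramp1* were in both lists, those of *Nmur1*, *Vipr1*, *Ramp3* and *Calca* were in the control list alone, and *Penk* had none in either. With the 10000 peaks of highest −log10 p of each list, which makes the lists equally long, 2 genes (*Vipr2* and *Ramp1*) had a start peak in the control list and 0 in the asthma list, against 32.3% and 9.34% of all protein-coding genes. With every listed peak, 51.0% of all protein-coding genes had a start peak in the control list and 42.0% in the asthma list. Of the genes with one in the control list, 19.0% had none in the asthma list, as against 4 of 7 here. These shares are not at like strength. By −log10 q, the strongest control start peaks of the 7 genes had a median percentile of 48.8, against 82.7 for all protein-coding genes. With peaks in the gene body included, 7 and 4 of the 8 genes had a peak, against 58.2% and 51.9% of all protein-coding genes. There were 15 peaks at the 8 genes in the control list, 11 of them start peaks, and 8 in the asthma list, 6 of them start peaks. A peak within 1000 bp was found for 24 and 10 of their 32 distinct annotated starts.

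**Figure D1:**
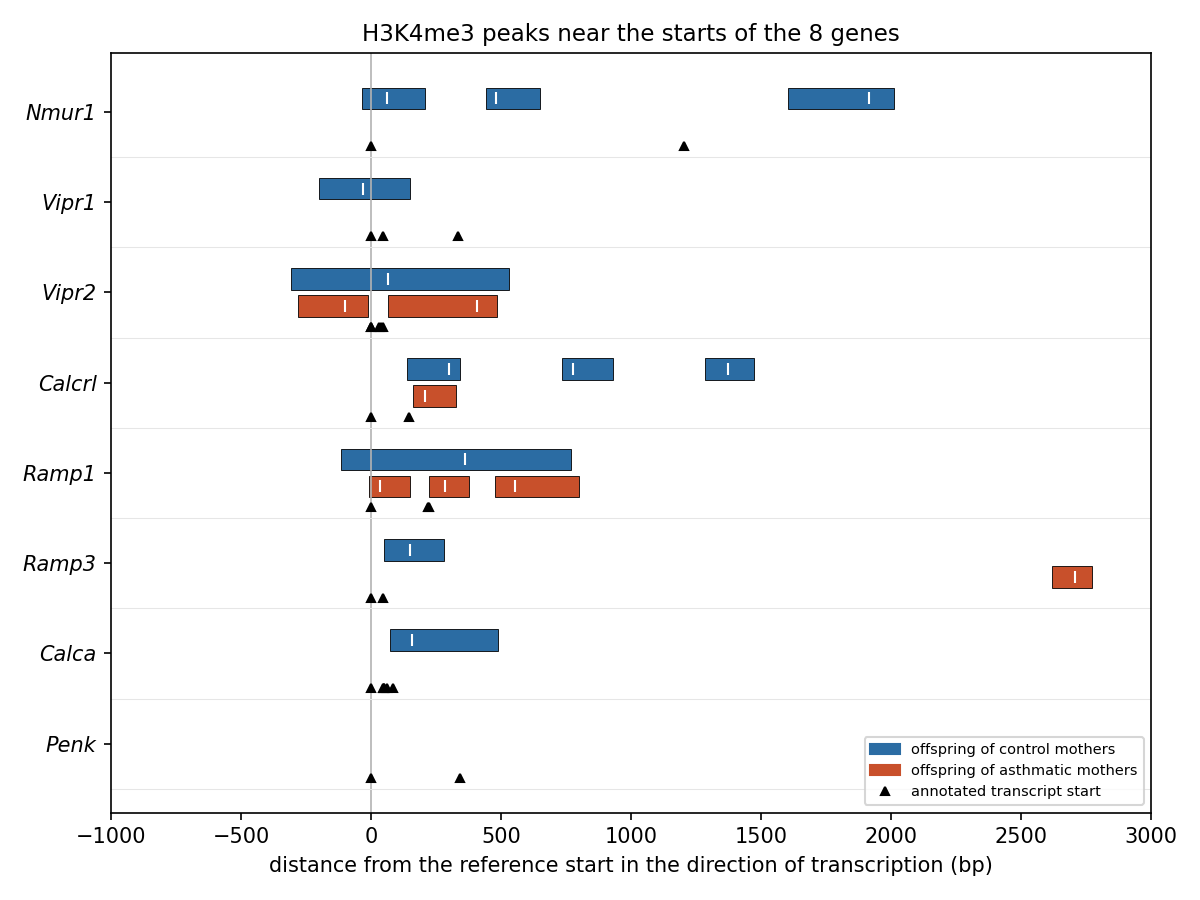
H3K4me3 peaks from 1000 bp before to 3000 bp after a reference start of each gene, in bp along the direction of transcription. Blue bars are peaks in offspring of control mothers, red bars peaks in offspring of asthmatic mothers, white ticks summits and triangles annotated starts. Red bars lie near the starts of *Vipr2*, *Calcrl* and *Ramp1*, while the red bar of *Ramp3* lies 2574 bp from its nearest start.

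The lists differed as a whole. The control list held 42126 peaks and the asthma list 51610, their median widths were 315 and 249 bp, and the narrowest peaks were 190 and 156 bp. The files give no read totals, and the fold, p and q of a peak refer to its own list. Strength is therefore given as the percentile of −log10 q among all peaks of the same list. Of 15 ILC2 markers, 10 had a start peak in the control list and 7 in the asthma list, with *Il1rl1*, which encodes the sorting marker ST2, in both. *Gata3*, *Il7r* and *Il5* had one in the control list alone. No start peak was found at any of 6 T cell, 6 B cell, 6 macrophage, 6 fibroblast, 6 neuroendocrine or 6 neuron markers, and 1 further macrophage and 1 further fibroblast marker were not analysed here. In the control list *Epcam*, *Cdh1* (2 of 8 epithelial markers) and *Kdr* (1 of 8 endothelial markers) had a start peak, with a −log10 q of 14.7, 8.98 and 3.84. In the asthma list only *Sftpb* of these 16 had one, with 6.00. The part of such cells in the results was not tested.

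*Nmur1* encodes the receptor for neuromedin U, a peptide of cholinergic neurons. The gene (ENSMUSG00000026237.5, chr1:86386303-86426228, minus strand) had 3 start peaks in the control list and no peak in the asthma list. The strongest, at chr1:86389137-86389378 (242 bp), lay over exon 1 of the transcript that begins at 86389344, with its summit 61 bp past this start. Its fold over the caller's background was 4.82 and its −log10 q was 8.75, the 57.5th percentile of its list. A peak at chr1:86388697-86388901 (205 bp, −log10 q 5.43, 22.7th percentile) lay in the intron that follows. The last, at chr1:86387332-86387741 (410 bp, −log10 q 8.00, 52.8th percentile), overlapped coding sequence, including exon 1 of the transcript that begins at 86388141.

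Of the 2 downstream starts of *Nmur1*, that at 86389344 lay under a peak. The start at 86388141 lay in a gap of 955 bp between peaks, 400 bp from the nearest. The 2 upstream starts, at 86426228 and 86398190, had no control peak nearer than 8418 bp and 8812 bp. In the asthma list the nearest peak lay 30033 bp from the start at 86389344. Of 794 control start peaks of protein-coding genes within 0.5 of the same −log10 q, 348 (43.8%, exact 95% interval 40.3 to 47.4%) were overlapped by no asthma peak. Absence from the asthma list was therefore frequent at peaks of this strength. This and the following intervals cover counting error only.

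*Vipr1* encodes a receptor of VIP, as does *Vipr2*. *Vipr1* (ENSMUSG00000032528.5, chr9:121642716-121672954, plus strand) had 2 peaks in the control list and none in the asthma list, where the nearest peak lay 62111 bp from its main start. The promoter peak, at chr9:121642514-121642865 (352 bp, fold 4.60, −log10 q 4.60), stood at the 12.4th percentile. It covered exon 1 and its summit lay 32 bp upstream of the start. A start of *Lyzl4*, on the minus strand, lay 418 bp from this peak. The stronger peak, at chr9:121669504-121670011 (508 bp, −log10 q 6.52, 36.0th percentile), lay over the last exon, exon 13 of the main transcript. It counted as a start peak through a retained-intron transcript that begins 791 bp away. Among control start peaks of like −log10 q to the stronger peak, 507 of 783 (64.8%, 61.3 to 68.1%) were not overlapped in the asthma list.

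*Vipr2* (ENSMUSG00000011171.11, chr12:116077726-116146261, plus strand) was marked at its promoter in both lists. In the control list 1 peak, at chr12:116077421-116078256, was 836 bp wide (fold 7.36, −log10 q 15.8, 88.3rd percentile). In the asthma list there were 2 narrower peaks, at chr12:116077446-116077715 (270 bp, −log10 q 4.27, 9.33rd percentile) and chr12:116077793-116078211 (419 bp, fold 5.14, −log10 q 5.86, 30.6th percentile). These lay wholly inside the control peak and covered 689 of its bases (82.4%). The gap between them was 77 bp and held 5 annotated starts of *Vipr2*, between 116077726 and 116077773.

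The strongest start peak of *Vipr2* was 0.501 times as wide in the asthma list as in the control list, and its percentile differed by -57.6 points. Among 9064 protein-coding genes with a start peak in both lists, the median width ratio was 0.649 (quartiles 0.462 to 0.819) and the median difference in percentile was -20.6 points. Of these genes, 30.1% had a width ratio at or below that of *Vipr2* and 10.1% a percentile difference at or below it. The width ratio was thus within the quartiles of these genes, while the difference in rank by −log10 q was among the larger ones. That difference was smaller by other rankings, -34.5 points by fold and -11.7 by width. The width ratio takes only 1 of the 2 asthma peaks, which together held 0.824 times the bases of the control peak and spanned 766 bp from end to end. Only 48 of 666 control start peaks of like −log10 q (7.21%, 5.36 to 9.44%) had no overlap in the asthma list. *Vipr2* also had 2 weaker intronic peaks in the control list alone, at chr12:116141133-116141384 (6.46th percentile, 98.0% repeat-masked) and chr12:116141992-116142201 (36.0th percentile). The downstream coding start at 116137347 had no peak within 1000 bp in either list.

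*Calcrl* encodes the calcitonin receptor-like receptor, which binds CGRP with RAMP1 and adrenomedullin with RAMP3. The gene (ENSMUSG00000059588.13, chr2:84330626-84425411, minus strand) had a start peak at chr2:84425071-84425274 in the control list (204 bp, fold 5.69, −log10 q 7.77, 48.8th percentile). The matching asthma peak, at chr2:84425084-84425249 (166 bp, fold 5.85, −log10 q 6.86, 48.1st percentile), lay inside it. Both lay over the untranslated exon 1. The percentile of *Calcrl* differed by -0.752 points between the lists, and 85.0% of the genes with both had a difference at or below it. The direction turned with the ranking used, to 5.27 points by fold, 0.986 by width and 23.8 among the best start peaks of protein-coding genes. Its width ratio was 0.814, and 74.4% of these genes had a ratio at or below that.

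*Calcrl* was also the only gene of middling rank in the control list with a start peak in both lists, and 421 of 756 control start peaks of like −log10 q (55.7%, 52.1 to 59.3%) were not overlapped in the asthma list. A weaker control start peak, at chr2:84424481-84424675 (28.2nd percentile), and an intronic control peak, at chr2:84423938-84424127 (17.8th percentile), had no asthma counterpart. A further intronic peak was in both lists, at chr2:84399928-84400117 and chr2:84399894-84400281, and was fully repeat-masked. The 75 bases around its summit had 3662 other exact copies in the genome for the control summit and 3646 for the asthma summit, so reads there cannot be placed uniquely by these bases. The summits of all other peaks of the 8 genes had 0 other copies. The downstream start at 84375358 was 24570 bp from the nearest peak in the control list and 24536 bp in the asthma list.

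**Figure D2:**
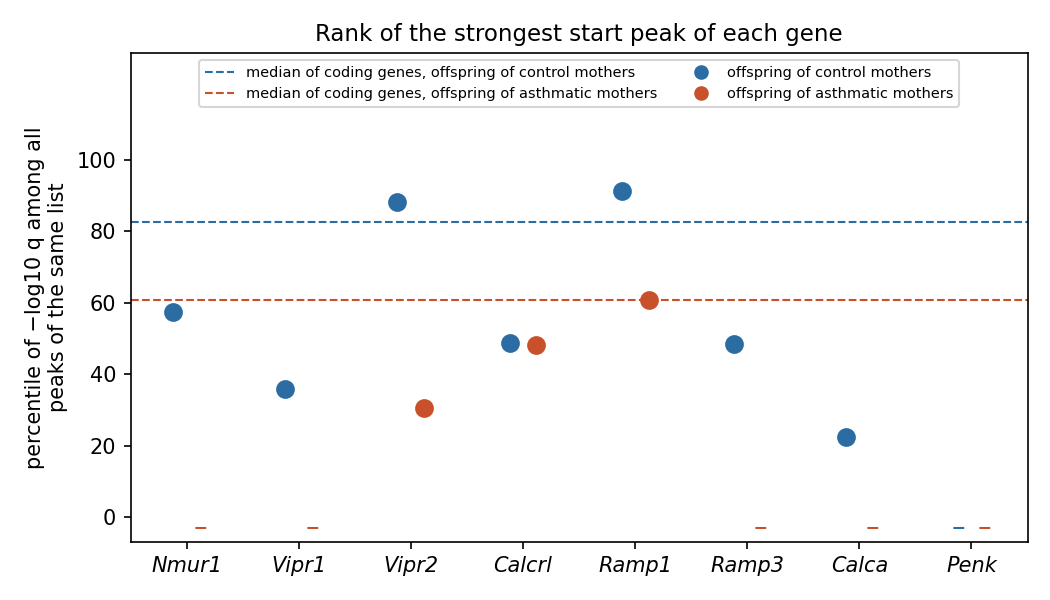
Percentile of −log10 q of the strongest start peak of each gene among all peaks of its own list, where 100 is the strongest. Dashed lines are the medians of protein-coding genes, blue for the control list (82.7) and red for the asthma list (60.7), and short bars below 0 mean no start peak. Only the blue points of *Ramp1* and *Vipr2* lie above the blue line.

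*Ramp1* encodes the partner that turns the calcitonin receptor-like receptor into the CGRP receptor. *Ramp1* (ENSMUSG00000034353.14, chr1:91179822-91225196, plus strand) had the strongest and widest start peak of the 8 genes in the control list. That peak, at chr1:91179705-91180592, was 888 bp wide (fold 6.52, −log10 q 17.4, 91.2nd percentile), and its summit lay 363 bp past the first start. In the asthma list the same stretch held 3 peaks. The first 2, at chr1:91179815-91179970 and chr1:91180044-91180199, were both 156 bp wide, the smallest width in that list, at the 2.50th and 16.7th percentiles. The last, at chr1:91180299-91180620, was 322 bp wide (fold 5.74, −log10 q 8.00, 60.8th percentile).

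The 3 asthma peaks of *Ramp1* were separated by gaps of 73 and 99 bp and together overlapped 606 of the 888 control bases (68.2%). Their summits were 251 and 267 bp apart. From end to end they spanned 806 bp, close to the control width, so the extent was alike while the listed cover was broken. Of 7996 control start peaks that were the best of a gene marked in both lists, 87.1% were overlapped by 1 asthma peak, 8.59% by 2, as for *Vipr2*, and 0.575% by 3 or more, as for *Ramp1*. The strongest asthma peak of *Ramp1* was 0.363 times as wide as that of the control list, and 14.0% of genes with both had a ratio at or below it. Its percentile differed by -30.5 points, with 35.1% of genes at or below, and by -11.9 points when ranked by fold. Of 556 control start peaks of like −log10 q, 34 (6.12%, 4.27 to 8.44%) were not overlapped.

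*Ramp3* encodes the RAMP that makes an adrenomedullin receptor of the calcitonin receptor-like receptor. *Ramp3* (ENSMUSG00000041046.7, chr11:6658521-6677475, plus strand) had a control start peak over exon 1, at chr11:6658569-6658800 (232 bp, fold 5.27, −log10 q 7.74, 48.6th percentile). The asthma list held no start peak of *Ramp3*. It held an intronic peak, at chr11:6661139-6661294 (156 bp, fold 4.93, −log10 q 5.01, 18.5th percentile), 2574 bp from the nearest start of *Ramp3*. Both lay near starts of *Gm11978*, a transcribed pseudogene on the minus strand, 1 of which, at 6658726, falls inside the control peak. To which of the genes the mark belongs cannot be told from the peaks. Of 771 control start peaks of like −log10 q, 431 (55.9%, 52.3 to 59.4%) were not overlapped in the asthma list.

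*Calca* encodes calcitonin and CGRP by alternative splicing. *Calca* (ENSMUSG00000030669.13, chr7:114631478-114636357, minus strand) had 1 control peak, at chr7:114635871-114636283 (413 bp, fold 4.95, −log10 q 5.39, 22.4th percentile). It lay over the untranslated exon 1 of 6 transcripts. The nearest asthma peak lay 62871 bp from the 5′-most start. The 22.4th percentile was the lowest among the strongest start peaks of the 7 marked genes. The promoter peak of *Vipr1*, which was not its strongest, stood lower, at the 12.4th percentile. Of 691 control start peaks of like −log10 q to that of *Calca*, 514 (74.4%, 71.0 to 77.6%) were not overlapped in the asthma list. *Penk* encodes proenkephalin, the precursor of the enkephalin opioid peptides. *Penk* (ENSMUSG00000045573.9, chr4:4133531-4138819, minus strand) had no peak by the rule, and the nearest lay 17131 bp from a start in the control list and 17222 bp in the asthma list.

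The ligand genes were thus unmarked or weakly marked, and the strongest start peaks were those of a receptor and a RAMP. Over the marked genes the strongest start peaks had a median width of 413 bp in the control list and 322 bp in the asthma list, against 528 and 339 bp for all protein-coding genes. The median percentile was 48.8 over 7 genes and 48.1 over 3 genes, below the 82.7 and 60.7 of all protein-coding genes. Both sets of medians cover different genes in the lists. The 4 genes with a start peak in the control list alone stood at the 57.5th percentile or below in the control list, and of the 3 with one in both lists, *Vipr2* and *Ramp1* stood at 88.3 and 91.2 and *Calcrl* at 48.8. Control rank thus did not fully separate them, since *Nmur1* stood above *Calcrl*. Of control start peaks of like −log10 q, 6.12% for *Ramp1* and 7.21% for *Vipr2* were not overlapped in the asthma list. For the other marked genes the share ran from 43.8% (*Nmur1*) to 74.4% (*Calca*). The part of peak strength was not tested.

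The number of fragments behind each peak was solved from its fold and −log10 p, taking a Poisson background and no control library. At the summit of the best control start peak, *Ramp1* had 38 fragments (exact Poisson 95% interval 26.9 to 52.2), *Vipr2* 30 (20.2 to 42.8) and *Nmur1* 25 (16.2 to 36.9). *Ramp3* had 19 (11.4 to 29.7), *Calcrl* 17 (9.90 to 27.2), *Vipr1* 15 (8.40 to 24.7) and *Calca* 13 (6.92 to 22.2). In the asthma list *Ramp1* had 18 (10.7 to 28.4), and *Vipr2* and *Calcrl* had 14 each (7.65 to 23.5). These numbers are not scaled for depth, and the summits of a gene lay at different positions in the lists, so they were not compared. The lowest background solved was 1.83 fragments in the control list and 1.57 in the asthma list. Each start peak thus rested on 38 fragments or fewer at its summit.

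**Figure D3:**
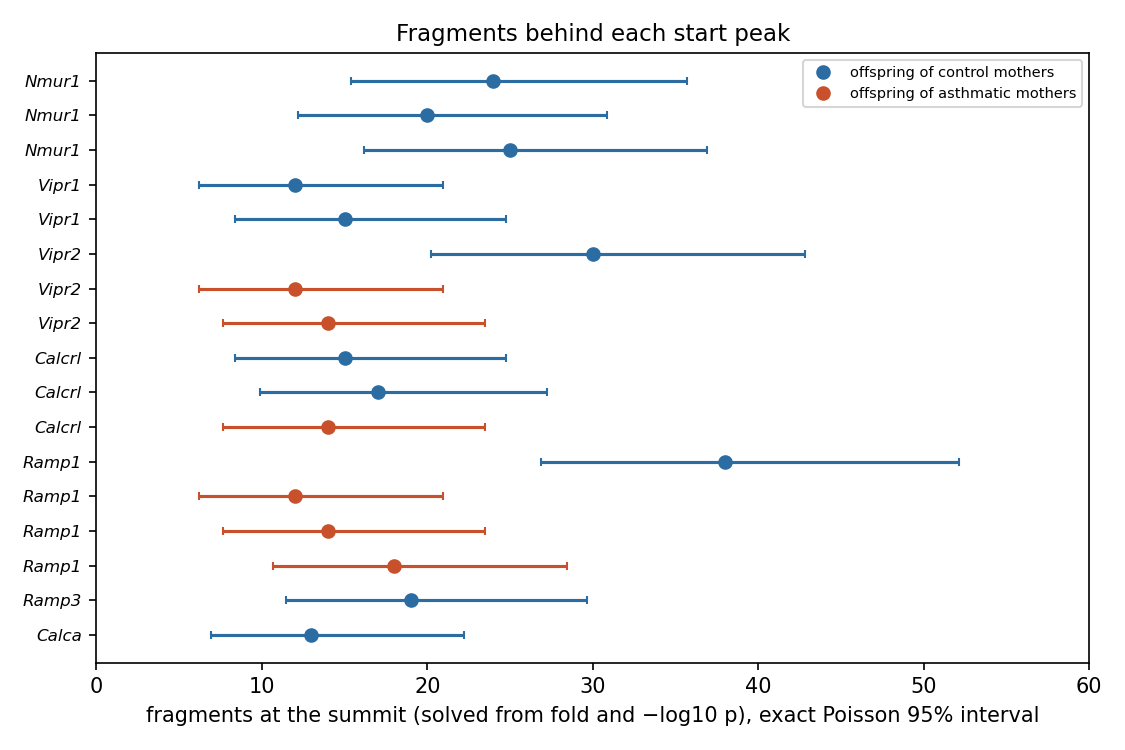
Fragments at the summit of each of the 11 start peaks of the control list (blue) and the 6 of the asthma list (red), with exact Poisson 95% intervals, in order of gene and position. The highest is the control peak of *Ramp1*, with 38, and the 6 asthma peaks lie between 12 and 18.

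H3K4me3 is known to follow CpG-rich promoters, so the genes were placed by the observed over expected CpG ratio within 500 bp of their 5′-most start. The ratio was 0.796 for *Penk*, 0.742 for *Vipr1*, 0.537 for *Vipr2*, 0.491 for *Calca*, 0.479 for *Ramp1*, 0.360 for *Calcrl*, 0.352 for *Ramp3* and 0.316 for *Nmur1*, against a median of 0.552 for all protein-coding genes. Only *Penk* and *Vipr1* lay above that median. For *Nmur1* the marked start at 86389344 had a ratio of 0.401.

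Genes were split into 5 equal classes by this ratio. In the second, which held *Nmur1*, *Calcrl* and *Ramp3*, 20.2% of genes had a start peak in the control list and 15.4% in the asthma list. In the third class, which held *Vipr2*, *Ramp1* and *Calca*, the shares were 55.3% and 40.0%. In the fourth, which held *Vipr1* and *Penk*, they were 81.5% and 66.7%. *Penk* was thus without a peak in a class in which most genes had one, and *Calcrl* and *Ramp3* were marked in the control list in a class in which most had none. *Nmur1* was placed by its 5′-most start, which had no peak, and its marked start would fall in the third class, which begins at 0.399. Of genes with a control start peak, 29.3% in the second class, again 29.3% in the third and 18.9% in the fourth had none in the asthma list. In the promoter windows, the cAMP response element TGACGTCA, the GATA motif AGATAA and the TATA motif TATAAA were searched on both strands. They occurred in 1.79%, 11.2% and 13.6% of all RefSeq promoters. The only match among the windows of the 7 genes was AGATAA in *Calca*.

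**Figure D4:**
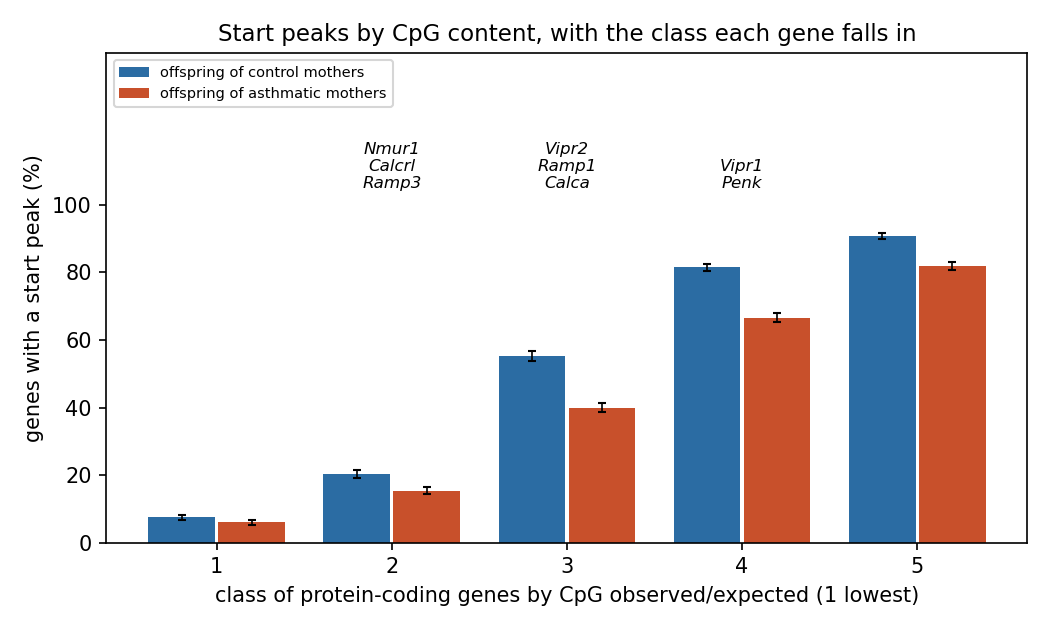
Share of protein-coding genes with a start peak (%, with exact 95% intervals) in 5 equal classes by the observed over expected CpG ratio at the 5′-most start, with the genes each class holds. The share rises from 7.45% to 90.8% in the control list (blue) and from 6.04% to 82.0% in the asthma list (red).

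Related genes were counted in 4 lists. Of 15 further neuropeptide ligand genes, only *Npy*, which encodes neuropeptide Y, had a start peak, in the control list alone (249 bp, −log10 q 8.84, 59.9th percentile). Of 15 further neuropeptide receptor genes, 2 had one in the control list and 1 in the asthma list. *Crcp*, whose product was named as a CGRP receptor component and is also a subunit of RNA polymerase III, was marked in both (509 and 333 bp, 91.4th and 58.9th percentiles). *Oprd1*, the delta opioid receptor, was marked in the control list alone (−log10 q 5.39). None of 13 adrenergic, dopamine and cholinergic receptor genes had a start peak in either list. The marked receptors of the 8 genes thus stood beside receptor lists that were nearly without the mark.

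Most of the listed downstream effectors were marked. Of 33 genes of G proteins, cAMP and calcium effectors, all had a start peak in the control list and 30 in the asthma list. The shares of all protein-coding genes were 51.0% and 42.0%. The median percentiles of the marked effectors were 80.8 and 54.3. This list was chosen with earlier results of these data known, so its share does not describe the signalling machinery as a whole. The strongest in the control list were *Gnai3*, an inhibitory G protein subunit (−log10 q 24.8 in the control list and 19.3 in the asthma list), and *Prkacb*, a catalytic subunit of protein kinase A (20.1 and 6.86). They were followed by *Crtc3*, a coactivator of the cAMP-responsive factor CREB, whose peak was 335 bp wide in the control list and 437 bp in the asthma list. Start peaks of *Adcy7*, an adenylyl cyclase, *Rgs1*, a regulator of G protein signalling, and *Pde4a*, a cAMP phosphodiesterase, were in the control list alone, at the 94.8th, 61.0th and 33.1st percentiles. *Adcy7* was thus absent from the asthma list although its control peak ranked above those of all 8 genes.

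**Figure D5:**
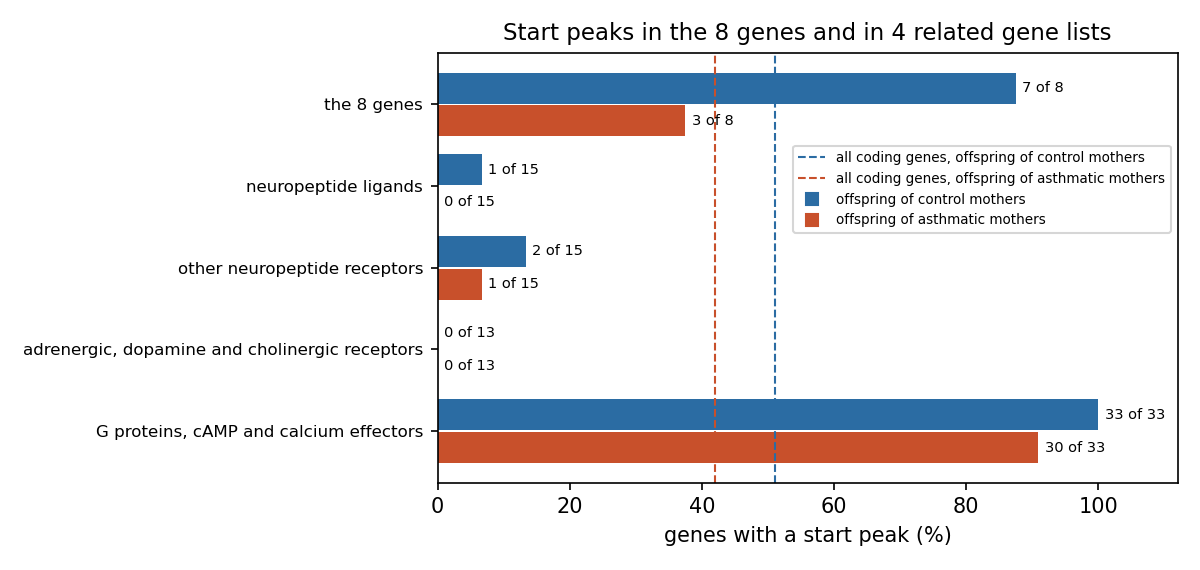
Share of genes with a start peak (%) among the 8 genes and in the 4 lists of related genes, with the counts printed beside the bars. Dashed lines are the shares of all protein-coding genes (51.0% for the control list, blue, and 42.0% for the asthma list, red). The effectors lie above both lines and the receptor and ligand lists below.

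The genes whose percentiles in both lists were nearest to those of *Ramp1* were *Arl2* and *Batf2*, which shared their best peaks (90.9 and 60.6, 641 and 347 bp wide, Euclidean distance 0.314). They were followed by *Def6*, a guanine nucleotide exchange factor of lymphocytes (91.5 and 60.5, 968 and 357 bp, distance 0.354). This measure rests on 2 libraries and says only that the ranks were alike.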

How the data were processed

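H3K4me3 CATCH-seq was analysed from 1 library of ILC2s per group. The authors trimmed the reads with Trim Galore and Cutadapt, aligned them with Bowtie 2 to GRCm38 (mm10) and took out duplicates by Sambamba. The tools other than Sambamba are also in the submitters' processing notes. The peak caller, its threshold and the use of the input are not given in the sources used here, and peak calling is denied in the reporting summary, yet each library has a deposited peak list. The deposited score equals the −log10 q times 10, rounded down, in 99.9786% of control and 99.9981% of asthma peaks. The fold given by the authors is the ratio of summit signal to the caller's background. The deposited −log10 p and −log10 q are the p-value and q-value of each peak against it, and the smallest −log10 q was 2.02 and 2.01. They were used only within a list.

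Peaks were read at their GRCm38 positions, counted from 1, and annotated with GENCODE vM21. An overlap of 1 bp or more made peaks shared. Fragments n and background b were solved from fold = (n + 1)/(b + 1) and p = P(X > n) for a Poisson mean b. For every 20th peak (2107 and 2581) a whole number n gave a −log10 p within 0.001 of the deposited value in 100% of cases. Intervals are exact (Clopper-Pearson for shares, Poisson for fragments) at 95%. Repeat-masked bases and copies came from the reference sequence. Promoters came from RefSeq.

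The members and lists were chosen with earlier results of these data known. Genes named beside the members are, of each related list, the 3 with the highest −log10 q of a start peak in the control list and up to 5 with a start peak in 1 list only, genes starting within 1000 bp of a member peak, and the 3 genes nearest to Ramp1 in rank. ILC2, epithelial and endothelial markers are named beyond that rule. With 1 library per group no test was made. The overlaps were tested on simulated data. The solving of fragments was tested on values simulated with the same formulas, so the assumption of no control library was not tested. Python 3.11.15, numpy 2.4.6, pandas 2.3.3, scipy 1.17.1, pysam 0.24.0 and matplotlib 3.10.9 were used. The coverage tracks and the other data types were not used here.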

Additional observations from a re-analysis of the deposited data

How the results depend on the processing

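No paired analysis was possible because each group had 1 library. A distance of 500 or 2000 bp, peaks under 50% repeat-masked, starts of protein-coding transcripts only and a −log10 q of at least 5 each gave a start peak at 7 control and 3 asthma genes, the same genes as above. At that −log10 q the asthma list held 5 peaks at the 8 genes in place of 8, and Vipr1 was counted only through its retained-intron start.

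With the 10000 peaks of highest −log10 p in each list, 2 of the 8 genes (Vipr2 and Ramp1) had a start peak in the control list and 0 in the asthma list. The shares of all protein-coding genes were 32.3% and 9.34%. With gene bodies included the counts were again 2 and 0, against 35.3% and 15.6%, and the number of peaks was also 2 and 0. Genes of the 4 related lists with a start peak fell from 36 and 31 to 23 and 7. Joined to domains, the median width was 836 and 766 bp, and divided by the narrowest peak it was 2.17 and 2.06. The median percentile was 54.2 and 61.8 by fold, 68.2 and 68.6 by width, and 12.9 and 36.7 among the best start peaks of all genes.

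The difference in percentile for Calcrl changed sign, from -0.752 to 5.27 by fold, 0.986 by width and 23.8 among best start peaks, and the cause was not tested. Vipr2 (-34.5, -11.7 and -45.3) and Ramp1 (-11.9, -28.0 and -24.2) kept their direction under these 3. Each value rests on 12 to 38 fragments at a start peak summit, so absence from a list does not show absence of the mark.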
